A study of Mus musculus with 15 samples.

Results

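Sertoli cells are the somatic cells of the seminiferous tubule, and 9 genes that mark them or carry their hormone function were followed through 15 mouse testis libraries. The genes were Sox9, Wt1, Gata4, Fshr, Inha, Inhbb, Clu, Trf and Rhox5. They were chosen by name and found by Entrez gene ID among the 23510 IDs of the deposited expression table, and each was found. All testes came from ICR mice, an outbred stock, and the libraries fell into 5 groups of 3. Con is labelled only as control. The other 4 groups received lentivirus in the testis at puberty and were collected days later: MNC carried the control hairpin shNC, and M1, M3 and M5 carried hairpins against the muscarinic acetylcholine receptor genes Chrm1, Chrm3 and Chrm5. Per the study's methods, each knockdown virus was a mix of 3 hairpins, injected into the testis as a whole. The labels do not say that the libraries of a group came from separate animals, so the p-values measure the spread between these libraries, which may be technical.

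Sertoli cells nurse the germ cells and form the blood-testis barrier. Follicle-stimulating hormone (FSH) from the pituitary acts on them through the receptor that Fshr encodes, which raises cyclic AMP inside the cell. In return they secrete inhibin, a dimer of the alpha subunit (Inha) with a beta subunit such as beta B (Inhbb), which lowers FSH release. Without the alpha subunit, beta subunits pair with each other to form activin, which acts in the opposite direction. Sox9, Wt1 and Gata4 encode transcription factors that establish and maintain the Sertoli cell, and Rhox5 encodes a homeobox protein whose gene responds to androgen in these cells. Clu (clusterin) and Trf (transferrin) encode secreted proteins, transferrin being the iron carrier for the germ cells.

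The start-site sequences are shown for both inhibin subunits, whose transcripts stood apart from each other in the data, and for Rhox5, the only member whose mean was higher in MNC than in Con. RefSeq windows were available for 4 of the 9 genes, and each runs from 250 bases before to 50 bases after a transcript start on assembly GRCm38.p6. The windows lie at chr1:75507359-75507658 on the plus strand for Inha, at chr1:119422199-119422498 on the minus strand for Inhbb and at chrX:37754358-37754657 on the plus strand for Rhox5. Capitals mark matches to GATA, the core letters bound by GATA factors, and to AGAACA, a half-site of the androgen receptor, on either strand.
Inha: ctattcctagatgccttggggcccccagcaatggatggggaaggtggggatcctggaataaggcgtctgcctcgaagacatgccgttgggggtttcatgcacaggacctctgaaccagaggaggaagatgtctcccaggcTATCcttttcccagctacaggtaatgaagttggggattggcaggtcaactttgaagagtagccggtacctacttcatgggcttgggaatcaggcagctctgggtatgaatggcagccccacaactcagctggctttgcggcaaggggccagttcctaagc
Inhbb: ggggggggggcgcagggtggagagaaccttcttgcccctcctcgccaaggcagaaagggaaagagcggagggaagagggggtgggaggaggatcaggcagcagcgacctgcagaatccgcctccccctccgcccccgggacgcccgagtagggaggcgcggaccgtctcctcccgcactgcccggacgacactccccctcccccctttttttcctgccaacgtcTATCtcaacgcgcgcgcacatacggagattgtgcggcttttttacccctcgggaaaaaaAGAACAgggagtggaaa
Rhox5: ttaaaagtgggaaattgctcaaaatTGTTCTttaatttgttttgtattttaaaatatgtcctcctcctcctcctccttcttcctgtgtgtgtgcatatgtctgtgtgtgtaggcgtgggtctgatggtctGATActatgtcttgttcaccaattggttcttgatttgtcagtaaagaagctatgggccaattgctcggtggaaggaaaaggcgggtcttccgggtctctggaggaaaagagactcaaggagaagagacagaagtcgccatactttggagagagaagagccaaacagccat
GATA was found at position -110 in Inha, at -26 in Inhbb and at -120 in Rhox5, counted from the start site to the first base of the match. AGAACA was found at 33 in Inhbb and at -225 in Rhox5. The window of Fshr, the fourth gene with an entry, held GATA at -197 and -26. The letters TGACGTCA and TGCGTCA, forms of the cyclic AMP response element, and AAGGTCA, bound by nuclear receptors such as the product of Nr5a1, had no match in these 4 windows. Of all 32851 such windows, 57.9% held GATA, 19% AGAACA, 4.7% AAGGTCA, 2.1% TGCGTCA and 1.8% TGACGTCA. None of these motifs overlaps another in the windows printed. The Inha window, with its GATA match, lies inside the gene, whose annotated start is chr1:75507077. Sequence upstream of that start was not searched, so the missing matches do not cover it. The Rhox5 window lies at the annotated start, chrX:37754608. Any start site further into that gene, which ends at chrX:37808878, was not searched.

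Expression was read as FPKM, fragments scaled for the length of a transcript and for library total, so levels of different genes can be set side by side. Over the 15 libraries, mean FPKM was 400.1 for Clu, 58.7 for Inha, 16.2 for Wt1, 8.77 for Rhox5, 7.71 for Trf, 7.33 for Gata4, 6.58 for Inhbb, 4.24 for Sox9 and 1.56 for Fshr. Clu thus ranked at percentile 99 of the 14514 genes tested and Fshr at percentile 9. All 9 genes passed the filter for testing, a mean of at least 1 FPKM, and each was above 0 in each library. Leydig cell genes summed to 665 FPKM or more in each library. Transcripts of testis somatic cells were thus present in each library, although the extraction protocol in the labels mentions sperm.

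On the genome, Inha (Entrez 16322, chr1:75507077-75510366) and Inhbb (16324, chr1:119415463-119422248) lie on the same chromosome. Fshr (14309) spans chr17:88984952-89200675, Sox9 (20682) chr11:112782210-112787757, Wt1 (22431) chr2:105126529-105173614 and Rhox5 (18617) chrX:37754608-37808878. Gata4 (14463, chr14:63198914-63271712) and Clu (12759, chr14:65968483-65981548) share chromosome 14, and Trf (22041) lies at chr9:103208876-103230286. FPKM counts whole genes, so no exon or isoform can be told apart.

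Facts of the whole data set bear on what follows. Summed FPKM was 470243 to 513817 per library, and relative depth, read from the smallest steps of the values, was 0.958 to 1.0. Only values close to the smallest of each gene were kept for this reading. It therefore could not show large differences in depth and does not establish that the libraries were equally deep. Targeted receptor transcripts were near the floor of the table, and their ranges in the targeted group and in MNC overlapped: Chrm1 was 0.09 to 0.14 FPKM in M1 and 0.1 to 0.11 in MNC, Chrm3 was 0.04 to 0.11 in M3 and 0.01 to 0.05 in MNC, and Chrm5 was 0.22 to 0.37 in M5 and 0.23 to 0.43 in MNC. These values do not check the knockdown labels. For M5 replicate 2 the labels point to the data column of replicate 1, and both libraries were assigned from their titles.

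M5 replicate 3 stood apart. All 9 members were above their own 15-library median there, and in 6 of them it held the highest value of all 15 libraries. M5 replicates 1 and 2 each had 2 of 9 members above the median. Genes of other cells were also high in M5 replicate 3: the Leydig list summed to 3221 FPKM against 665 to 2047 in the other 14 libraries, the macrophage list to 199 against 40.5 to 94.9, and a list of other Sertoli genes to 1255 against 707 to 936. The median log2(FPKM + 1) over all genes tested was highest there too, at 3.449 against 3.175 to 3.409. Spermatid genes were lowest there among the injected libraries. Elongating spermatid genes summed to 23261 against 23596 to 32392 in the other 11, and round spermatid genes to 1118 against 1167 to 1351. Red blood cell genes were high in the M5 group as a whole, with sums of 167, 148 and 490.7 against 21.8 to 98.85 in the other 12 libraries. In bulk tissue, fewer cells of a type and less RNA per cell cannot be told apart. Differences of the members that involve M5 are therefore given with and without this library. It was singled out by the members' own values, so the fits without it are a description.

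**Figure D1:**
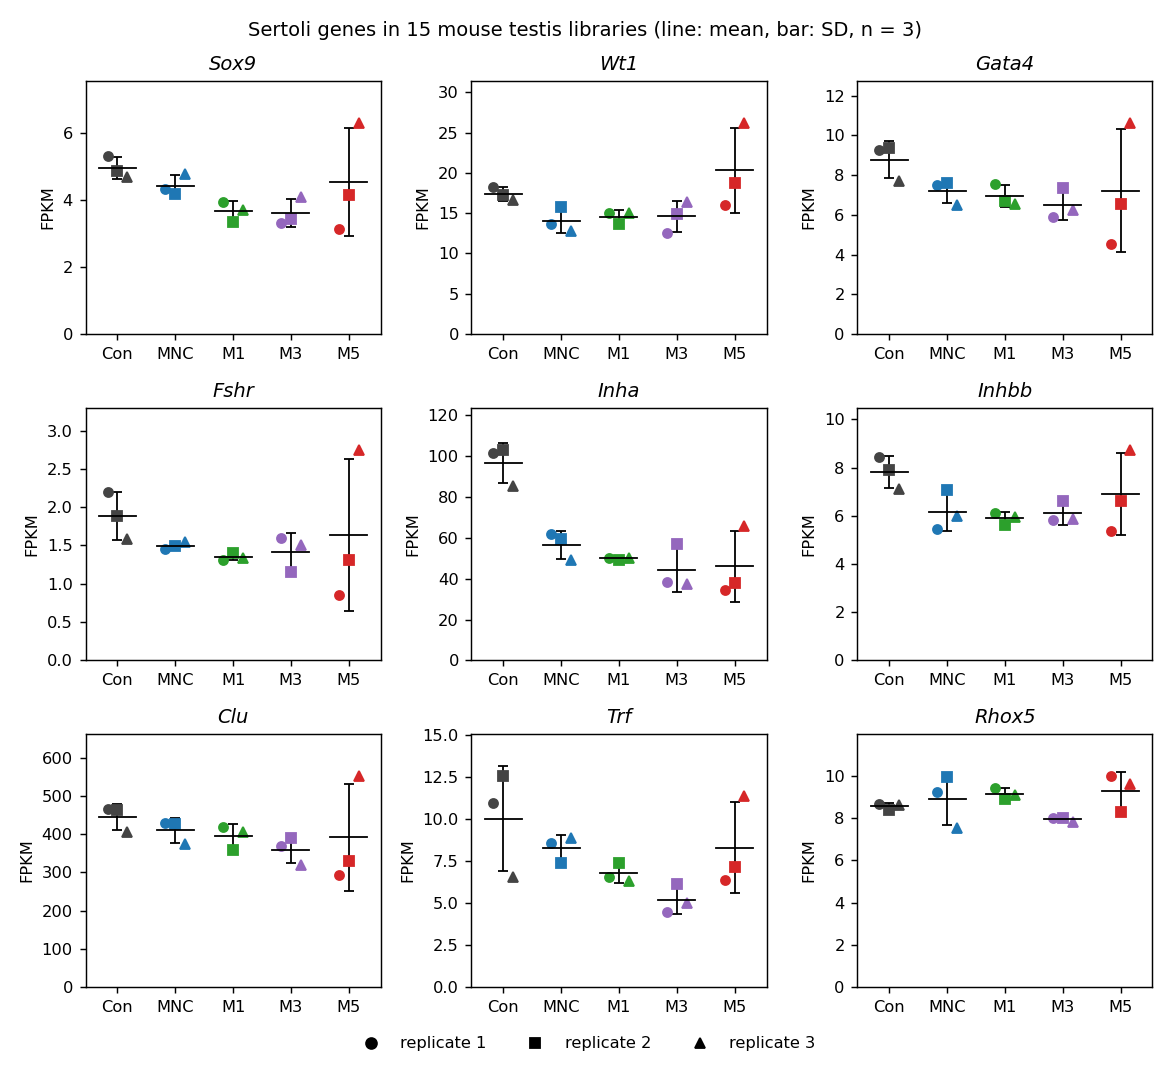
FPKM (vertical axes, each from 0) of the 9 Sertoli genes in the 15 libraries by group, with points for libraries and lines and bars for the mean and SD of each group (n = 3). Inha lay between 85.5 and 103 in Con and between 34.3 and 65.9 in the 12 injected libraries, and M5 replicate 3 was the highest injected library in 8 of the 9 genes.

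Inha, the inhibin alpha subunit, was the member that changed most against Con. Its FPKM was 101, 103 and 85.5 in Con replicates 1, 2 and 3, and 61.7, 59.5 and 48.9 in the MNC replicates. The 3 values were 50.4, 49.1 and 50.3 in M1, 38.6, 56.9 and 37.4 in M3, and 34.3, 37.8 and 65.9 in M5. Every injected library lay below every Con library, and the 4 injected groups overlapped their neighbours in the order of means, from MNC (56.7 ± 6.85, SD, n = 3) over M1 (49.9 ± 0.719) and M5 (46.0 ± 17.3) to M3 (44.3 ± 10.9). The mean of Con was 96.65 ± 9.71.

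MNC against Con asks what the injection with a control virus goes with, and Inha fell by 0.76 on the scale of log2(FPKM + 1) (SE 0.112, limma adjusted p = 0.0177). It was the only member called, that is, with an adjusted p under 0.05, and 20.4% of all genes tested were called in this comparison, with 12.4% of all genes tested called as lower. The call was lost without Con replicate 1 (adjusted p = 0.0866) and without Con replicate 2 (adjusted p = 0.0576), with 8 and 195 genes called in all. Against Con, the mean of the 4 injected groups was lower by a log2 difference of -0.98 (SE 0.166, limma adjusted p = 0.00116), with 49.2 FPKM on average. Here too Inha was the only member called of 9, and the only one with no overlap between Con and the 12 injected libraries, beside 34.2% of all genes called, 22.4% called as lower and 11.5% below Con with no overlap.

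The beta B subunit followed with a smaller difference. Inhbb was 8.44, 7.90 and 7.12 FPKM in Con, 5.46, 7.07 and 5.98 in MNC, 6.12, 5.61 and 5.94 in M1, 5.81, 6.63 and 5.85 in M3, and 5.35, 6.63 and 8.74 in M5. MNC lay below Con in every library, by 7.07 against 7.12 at the nearest, while M5 replicate 3 exceeded all Con libraries. The log2 difference was -0.30 for MNC against Con (SE 0.106, limma adjusted p = 0.0858) and -0.29 for the injected groups against Con (SE 0.105, adjusted p = 0.0515), neither of which passed the threshold.

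The ratio of both subunits, a quantity chosen after the values were seen and given with no test, put the alpha transcript further down than beta B. Inha FPKM was 12, 13.1 and 12 times Inhbb FPKM in Con, 11.3, 8.42 and 8.18 times in MNC, 8.23, 8.75 and 8.47 in M1, 6.64, 8.58 and 6.39 in M3, and 6.41, 5.70 and 7.54 in M5. Each of the 12 injected libraries lay below the lowest Con library. M5 replicate 3, with the highest levels of Inhbb, had a ratio inside the range of the other injected libraries.

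**Figure D2:**
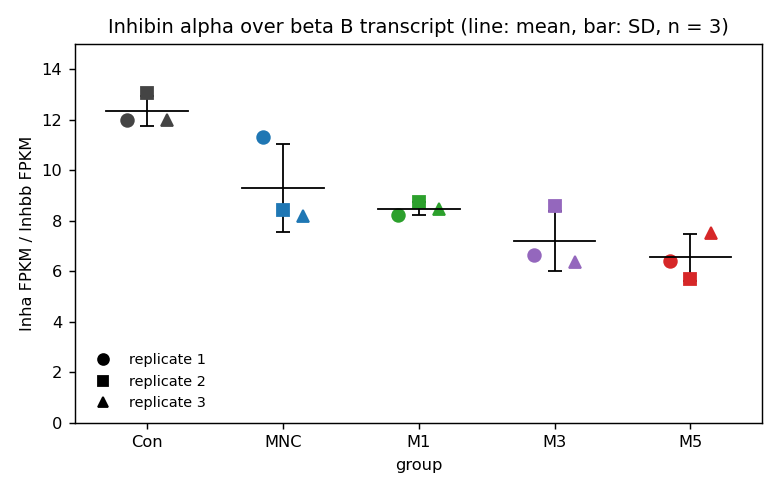
Inha FPKM divided by Inhbb FPKM (vertical axis, from 0) in each library by group, with marker shape for the replicate number, lines for group means and bars for the SD (n = 3). Con libraries lay at 12 to 13.1 and the injected libraries at 5.70 to 11.3.

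Fshr, the FSH receptor, was the least abundant member. Con held 1.58 to 2.2 FPKM, MNC 1.45 to 1.54, M1 1.31 to 1.40 and M3 1.15 to 1.60. The M5 libraries were spread most, at 0.85, 1.31 and 2.75 FPKM, and held both the lowest and the highest value of the 15. MNC lay below Con without overlap (log2 difference -0.21, SE 0.102, limma adjusted p = 0.179, and -0.13 without Con replicate 1), and M1 lay below MNC without overlap (-0.085, SE 0.0716, adjusted p = 0.862), and neither difference passed the test. At this level, the added 1 in the log scale understates changes.

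Of the transcription factors, Wt1 was highest in M5. Its FPKM was 16.0, 18.8 and 26.2 in M5, against 13.6, 15.7 and 12.8 in MNC, 15, 13.6 and 15 in M1 and 12.5, 14.9 and 16.4 in M3. Con held 18.3, 17.2 and 16.6, within the range of M5. Wt1 of M5 exceeded MNC in all libraries by a log2 difference of 0.48 (SE 0.179), which missed the threshold in the fit of these groups (limma adjusted p = 0.16) and passed it when all 5 groups shared the estimate of the spread (adjusted p = 0.0414). Against M1 the difference was 0.43 (SE 0.168, adjusted p = 0.172), again without overlap. Without M5 replicate 3 these differences were 0.29 against MNC (adjusted p = 0.179) and 0.24 against M1 (adjusted p = 0.136). In M5 against MNC 3 of 5 red blood cell genes were called as higher as well, and their part in the Wt1 values was not tested. MNC lay below Con by a log2 difference of -0.29 (SE 0.086, adjusted p = 0.0576). With genes under a mean of 5 FPKM left out this difference was called (adjusted p = 0.0424). It was called in no other setting, with an adjusted p of 0.166 after median centring (log2 difference -0.20) and 0.162 with all groups in the fit.

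Sox9, which drives the male fate of the supporting cell, had its lowest group means in M1 and M3. The 3 libraries held 3.94, 3.34 and 3.71 FPKM in M1, 3.33, 3.44 and 4.08 in M3, and 4.32, 4.18 and 4.79 in MNC. Con held 5.33, 4.87 and 4.69, which overlapped MNC, and M5 was spread from 3.14 over 4.16 to 6.30. M5 replicate 1 was the lowest of all libraries, and M5 replicates 1 and 2 lay below every MNC library. The higher M5 mean thus rested on M5 replicate 3. Both M1 (log2 difference -0.22, SE 0.084, limma adjusted p = 0.819) and M3 (-0.24, SE 0.1, adjusted p = 0.518) lay below MNC without overlap, and neither passed the test.

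Gata4, a factor shared with Leydig cells, was 7.71 to 9.35 FPKM in Con and 6.49 to 7.59 in MNC, which did not overlap (log2 difference -0.25, SE 0.0978, limma adjusted p = 0.107). M1 held 6.56 to 7.57 and M3 5.91 to 7.36, within or beside the range of MNC. In M5 the values were 4.52, 6.53 and 10.6, again the lowest and the highest of the 15.

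Rhox5 did not share this order. Its FPKM was 8.67, 8.40 and 8.60 in Con, 9.23, 9.96 and 7.53 in MNC, 9.44, 8.90 and 9.09 in M1, 8, 8.01 and 7.84 in M3, and 9.99, 8.30 and 9.62 in M5. Con fell inside the range of MNC, and M3 was the lowest group, below Con, M1 and M5 without overlap. M1 exceeded M3 by a log2 difference of 0.18 (SE 0.0598, limma adjusted p = 0.899) and M5 exceeded M3 by 0.20 (SE 0.0957, adjusted p = 0.373), or by 0.18 without M5 replicate 3 (adjusted p = 0.487), so neither was called. Median centring of the libraries turned the mean of M3 from below Con to above it, by a log2 difference of 0.06.

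Clusterin was the most abundant member and differed little between groups. Clu was 406 to 467 FPKM in Con, 373 to 430 in MNC, 357 to 419 in M1 and 319 to 389 in M3. The M5 libraries held 293, 331 and 552 FPKM, so that replicates 1 and 2 lay below all Con, MNC and M1 libraries and replicate 3 above all others. With all libraries, none of the 8 comparisons fitted gave Clu an unadjusted limma p under 0.05 or groups without overlap. M3 lay below Con without overlap, but M3 against Con was not among the comparisons fitted. Without M5 replicate 3, Clu in M5 against MNC gave a log2 difference of -0.39 (adjusted p = 0.0617) in place of -0.12 (adjusted p = 0.794).

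Transferrin was lowest in M3. Trf was 4.48, 6.13 and 4.98 FPKM in M3, 8.55, 7.35 and 8.86 in MNC, 6.57, 7.40 and 6.33 in M1, 6.35, 7.17 and 11.4 in M5 and 11, 12.6 and 6.57 in Con. Every M3 library lay below every library of the other 4 groups. The log2 difference of M3 against MNC was -0.58 (SE 0.124, unadjusted p = 0.00268), and it was not called after adjustment over all genes (limma adjusted p = 0.518). M1 against MNC gave -0.25 (SE 0.0923, adjusted p = 0.819), M5 against M3 0.56 (SE 0.212, adjusted p = 0.338, and 0.33 with adjusted p = 0.458 without M5 replicate 3) and M1 against M3 0.33 (SE 0.116, adjusted p = 0.899). The injected groups against Con gave -0.43 (SE 0.17, adjusted p = 0.0662), and this value rested on single Con libraries. It was -0.68 without Con replicate 3 (adjusted p = 0.0111), the Con library with the lowest Trf, -0.35 without Con replicate 1 (adjusted p = 0.24) and -0.26 without Con replicate 2 (adjusted p = 0.344).

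Read as a set against Con, 8 of the 9 members had a lower mean of log2(FPKM + 1) in MNC, with a median log2 difference of -0.21 against -0.10 over all genes tested, of which 64.6% were lower. Ranges of MNC and Con did not overlap for 5 members, all lower (Wt1, Gata4, Fshr, Inha and Inhbb), beside 31.5% of all genes. An unadjusted p under 0.05 was reached by 4 members, beside 40.1% of all genes. For the injected groups the median of the members was -0.25, against -0.10 over all genes, and 8 of 9 were lower, beside 66.4% of all genes, with an unadjusted p under 0.05 for 3 of them, beside 46%. Centring each library on its median turned the balance of all calls from 1801 lower and 1166 higher to 420 lower and 1449 higher for MNC against Con, and from 3247 lower and 1715 higher to 967 lower and 2302 higher for the injected groups, while Inha was called as lower in both.

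Without M5 replicate 3, 7 of the 9 members were called as lower in the injected groups, beside 31.9% of all genes. With all libraries 1 was called. That library was singled out by the high values of these same members. The rise in calls follows in part from this choice and is no separate test. The log2 differences were -1.06 for Inha (limma adjusted p = 0.000142), -0.49 for Trf (0.0181), -0.38 for Gata4 (0.00859), -0.33 for Inhbb (0.0066), -0.31 for Sox9 (0.00869) and for Fshr (0.0149), and -0.28 for Clu (0.0119). Wt1 (-0.19, adjusted p = 0.0705) and Rhox5 (0.03, adjusted p = 0.754) were not called.

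Genes of other cell types moved between Con and the injected libraries as well. The summed FPKM of elongating spermatid genes was 11387 to 22053 in Con and 23261 to 32392 in the injected libraries, and round spermatid genes summed to 1026 to 1049 and 1118 to 1351. Spermatocyte genes were 566 to 587 in Con and 452 to 567 after injection, and interferon response genes were 18.7 to 19.8 and 22.7 to 106. Peritubular myoid genes summed to 45.4 to 50.1 in Con and 28.9 to 48.8 in the injected libraries. Epididymis genes summed to 11.6 to 33.35 in Con, 1.56 to 2.2 in MNC, M1 and M5, and 2.5 to 20.6 in M3, and 1 of the 2 tested was called as lower in MNC against Con (median log2 difference -1.91). Leydig genes, at 1558 to 2019 in Con and 665 to 3221 in the injected libraries, had a median log2 difference of -0.34 in the injected groups, with 1 of 8 called as lower. The part of these shifts in the lower Sertoli values was not tested.

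**Figure D3:**
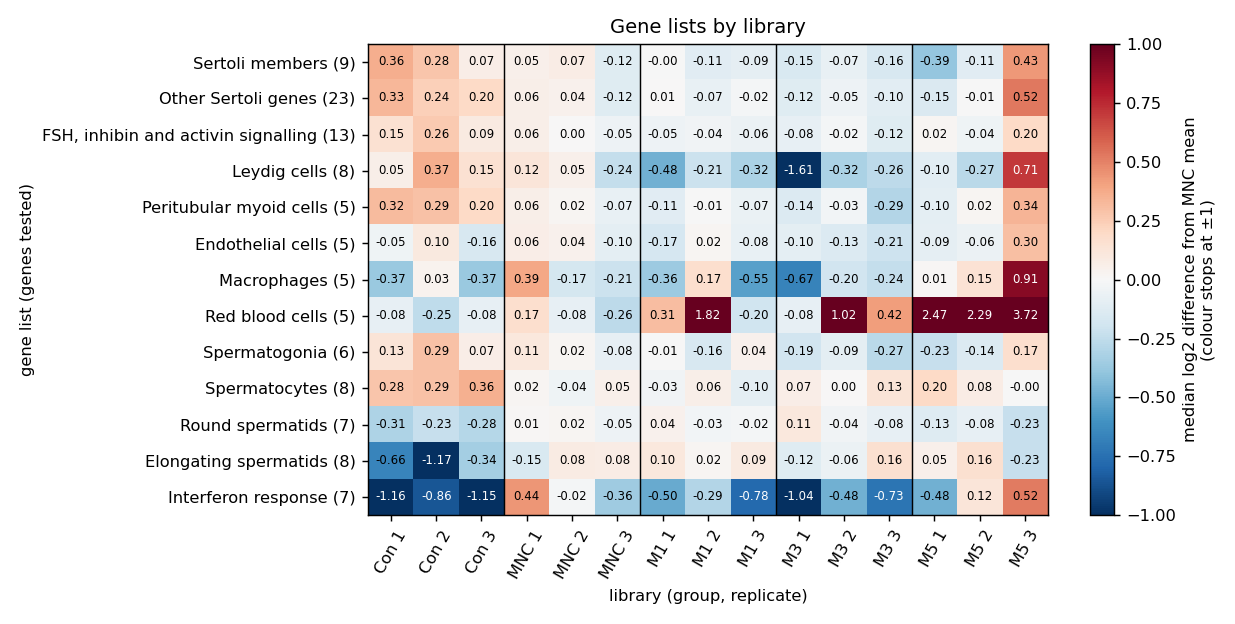
Median log2 difference of each gene list (rows, with the number of genes tested) from the mean of MNC in each of the 15 libraries (columns), as colour and printed number, with colour ending at 1 either way. The Sertoli members lay at 0.07 to 0.36 in Con and at 0.43 in M5 replicate 3, and between -0.39 and 0.07 in the other 11 libraries.

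The knockdown groups against MNC ask what each receptor virus adds to the control virus. None of the 9 members was called in M5, M1 or M3 against MNC by limma, beside 5.65%, 0% and 0.00689% of all genes, and 1, 2 and 1 members had an unadjusted p under 0.05, beside 24.9%, 5.94% and 9.43%. Ranges did not overlap for Wt1 in M5 (higher, beside 16.6% of all genes), for Sox9 and Fshr in M1 (lower, beside 6.97%) and for Sox9 and Trf in M3 (lower, beside 10.6%). Means of log2(FPKM + 1) were lower than in MNC for 5, 7 and 8 of 9 members in M5, M1 and M3, beside 45.5%, 57.1% and 60.6% of all genes, with median log2 differences of -0.01, -0.06 and -0.14 against 0.03, -0.02 and -0.04 over all genes. These 3 comparisons share the MNC libraries.

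M5 against MNC rested on M5 replicate 3. Without it, 7 of 9 members were lower, with a median log2 difference of -0.25 against -0.02 over all genes. Inha was then called as lower by -0.63 (limma adjusted p = 0.0449), beside 3.26% of all genes called as lower. With all libraries the Inha difference was -0.35 (adjusted p = 0.422). Against M1, leaving out the same library also gave a call for Inha, at -0.46 (adjusted p = 0.0162) in place of -0.18 (adjusted p = 0.668). Of all genes, 5.86% were called as lower in that fit. Both calls rest on 2 M5 libraries, kept after the library highest in these members, Inha included, was set aside. No member was called in either comparison when any other single library was left out. Against M3, 9 of 9 members were higher in M5 with all libraries (median log2 difference 0.14, against 0.06 over all genes). Without M5 replicate 3, 5 of 9 were lower (median -0.03, against 0.02 over all genes), with 0 called by limma. The share of all genes with a higher or lower mean was not counted for M5 against M3 or without M5 replicate 3. With all libraries no member was called for M5 against M1, M5 against M3 or M1 against M3, beside 6.75%, 0.0138% and 0% of all genes, and 1, 1 and 2 members had an unadjusted p under 0.05, beside 25.4%, 14.3% and 4.63%. Ranges without overlap were found for Wt1 in M5 against M1 (higher, beside 18.8%), for Trf and Rhox5 in M5 against M3 (higher, beside 14.4%) and for Trf and Rhox5 in M1 against M3 (higher, beside 6.28%).

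**Figure D4:**
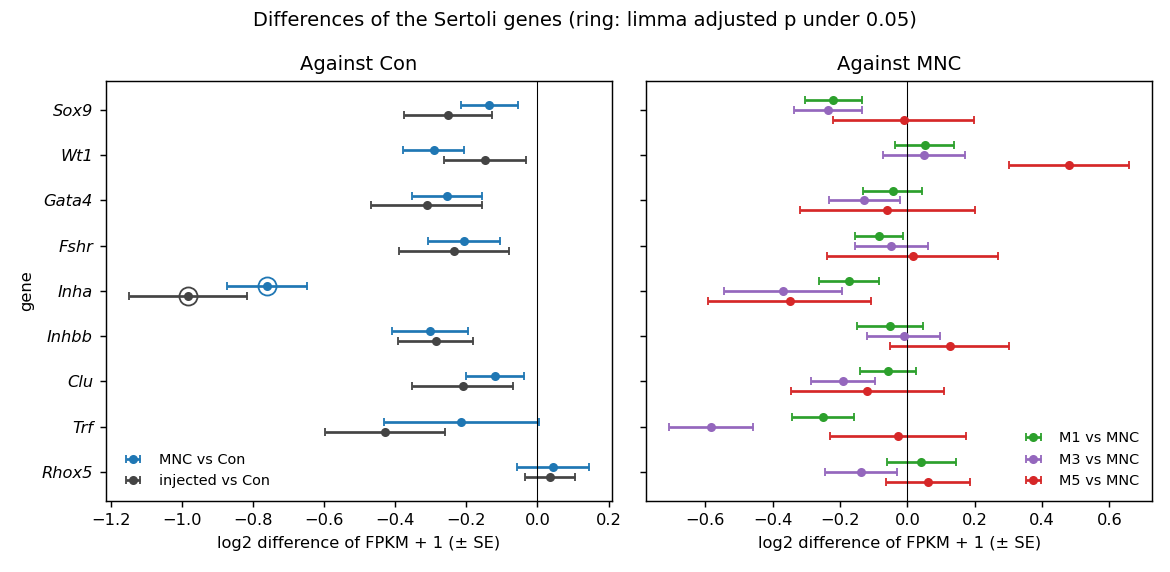
Log2 difference of FPKM + 1 (horizontal axes) for the 9 Sertoli genes against Con (left panel) and against MNC (right panel), with bars for the standard error of the limma fit and rings for an adjusted p under 0.05. Rings lie only on Inha, at -0.76 in MNC against Con and at -0.98 in the injected groups against Con, and Wt1 in M5 lies at 0.48 against MNC with no ring.

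Further Sertoli genes were read from a list of 25, of which 23 were tested. In MNC against Con 3 were called, all lower: Shbg, the androgen-binding protein (log2 difference -0.59, limma adjusted p = 0.0237), Cst12 (-0.38, 0.0307) and Cldn11, the claudin of the blood-testis barrier (-0.36, 0.0337). Over all genes tested, 12.4% were called as lower. The median of the list was -0.22, 21 of 23 were lower beside 64.6% of all genes, and 11 lay below Con with no overlap beside 31.5%. The count of 3 became 0 without Con replicate 1, Con replicate 2 or MNC replicate 3, and 1 without MNC replicate 1, after median centring, with no filter or with all groups in the fit. It rose to 5 with the GC trend removed and to 4 of the 15 genes left by a filter at 5 FPKM. For the injected groups against Con 9 of 23 were called as lower, beside 22.4% of all genes, and 0 as higher, led by the dopamine receptor Drd4 (-0.73, 0.017), Shbg (-0.70, 0.012) and Amh, the hormone of the immature Sertoli cell (-0.60, 0.0206), with a median of -0.27. That count was 16 without M5 replicate 3, 1 without Con replicate 1, 3 without Con replicate 2 and 5 after median centring. It was 4 of the 15 genes left by the filter at 5 FPKM. None was called in the other 6 comparisons.

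FSH, inhibin and activin signalling was read from 17 genes, of which 13 were tested. All 13 had a lower mean of log2(FPKM + 1) in MNC than in Con, beside 64.6% of all genes, and none was called by limma there. In the injected groups against Con 4 of 13 were called as lower, beside 22.4% of all genes, led by Smad2, which carries activin signals (-0.27, limma adjusted p = 0.0153), the activin receptor Acvr1b (-0.27, 0.0067) and Prkaca, the catalytic subunit of the cyclic AMP-dependent kinase (-0.22, 0.013). The count was 1 without Con replicate 2 or after median centring, and 6 without M5 replicate 3. It was 2 of the 9 genes left by the filter at 5 FPKM. Prkaca was also called as lower in M5, with 45.6 FPKM against 61.2 in MNC (log2 difference -0.42, adjusted p = 0.0163) and 59.2 in M1 (-0.37, adjusted p = 0.014). The call against MNC was lost without MNC replicate 2 or 3 or M5 replicate 1 or 2, the call against M1 without M1 replicate 1 or 3 or M5 replicate 2, and both after median centring or removal of the GC trend. Prkaca is also highly used in male germ cells, and which cells its transcripts came from was not tested, nor was the part of the higher red blood cell genes of M5 in these values.

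Genes with the most similar course over the 15 libraries were sought by Pearson's r of log2(FPKM + 1), given as a description since the libraries share groups and M5 replicate 3. For Inha they were Atp13a1 (r = 0.970) and Numa1 (0.966), for Inhbb Slc4a2 (0.952) and Vxn (0.945), and for Fshr Aplp1 (0.936) and Ttc7b (0.927). For Wt1 they were Syap1 (0.970) and Jade1 (0.968), for Sox9 Rab20 (0.924) and Map3k14 (0.912), and for Gata4 Bcl2l2 (0.946) and Drp2 (0.943). Clu was most like Tfe3 (0.987) and Mllt6 (0.971), and Trf most like Cactin (0.943) and Polr2l (0.934). Rhox5 had no close match, with 0.776 for Kirrel and 0.753 for Gm3650.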

How the data were processed

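RNA of 15 mouse testis libraries was analysed, grouped by sample title. The authors deposited 1 table of FPKM values, to 2 decimals. Per the study's methods, reads were mapped with SOAPaligner, and the submitters' processing notes name mm10. Entrez IDs were named through RefSeq GRCm38.p6 (21143 of 23510, 89.9%). Absolute depth is unknown, so no counting interval is given. Relative depth rests on few genes per library and on values close to the smallest of each gene, so large differences would not show.

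Values were analysed as log2(FPKM + 1), which understates changes of low genes. The study's count test (DEGseq) does not apply to FPKM, so the 14514 genes averaging at least 1 FPKM were fitted in limma 3.58.1 under R 4.3.3 (lmFit, then eBayes with its trend option), two-sided. Each fit held the 2 groups compared. The contrast of the 4 injected groups with Con used all 15 libraries. Benjamini-Hochberg adjustment ran over all genes tested, with calls at an adjusted p under 0.05. In 5 simulated sets for M5 against MNC (14514 genes, 200 changed by 1 log2 unit), 80.7% of changed genes were recovered and 5.31% of calls were false. The simulated spread came from MNC and M1, while M5 had a larger SD than MNC in every member but Rhox5. No member differed by 1 log2 unit in M5 against MNC (at most 0.48, for Wt1). The recovered share therefore does not give the power for the members in that comparison.

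In the comparisons fitted, differences are printed for members called, with an unadjusted p under 0.05 or with groups that do not overlap. They are also printed for the 3 called genes of each further list with the largest change. For each member, the 2 named genes with the highest Pearson's r are given. The members and lists were chosen with earlier results of these data known. Alternatives were a pseudocount of 0.1, no filter, a mean of 5 FPKM, median centring, other samples in the fit, a replicate block, removal of the GC trend and leaving out each library. Python 3.11.15 with pandas 2.3.3 drew up the tables.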

Additional observations from a re-analysis of the deposited data

How the results depend on the processing

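Of 270 alternative values of 19 member differences, 258 kept their direction and side of the threshold, 9 passed it where the reported fit had not, 3 lost it and 0 turned. Members called in M5 against MNC went from 0 to 1 (Wt1) with all groups in 1 fit, and from 0 to 1 over the fits that leave out a library. For MNC against Con the count of 1 became 2 with a mean of 5 FPKM or more, and 0 to 1 with a library left out. For the injected groups against Con the count of 1 became 2 with a mean of 5 FPKM or more (Inhbb, adjusted p = 0.0444), 2 with Con set against all 12 injected libraries as a single group (Inhbb, adjusted p = 0.049993), and 1 to 7 with a library left out. M5 against M1 gave 0 to 1 with a library left out. The filter at 5 FPKM leaves Sox9 and Fshr untested. Centring moved 17 of 36 group levels relative to Con by more than 1 SD.

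With the replicate number as a block, the count of members in MNC against Con became 0 (Inha adjusted p = 0.0587), and no other call of a member changed. The 3 other Sertoli genes called there became 0, and Prkaca was not called in M5 against MNC or M1. All-gene calls under the block were 10 for MNC against Con, 14 for M5 against MNC and 39 for M5 against M1. Same-numbered libraries had correlations of deviations from -0.399 to 0.181, and at most 4 of 6 libraries in a comparison were most like their own number, so the numbers were not taken as pairs.

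Counts over all genes depended on the settings. M5 against MNC gave 820 calls, 464 with no filter, 182 after centring, 2424 with all groups in the fit, 82 (52 higher) without the GC trend and 35 to 946 with a library left out. MNC against Con gave 2967, 1632 with no filter, 1869 after centring and 8 to 2497 with a library left out. The injected groups against Con gave 4962, 3269 after centring and 2752 to 6470 with a library left out. M5 against M1 gave 980, 601 with no filter, 252 after centring, 94 (60 higher) without the GC trend and 56 to 1690 with a library left out. The other 4 comparisons had at most 188. The cause of these changes was not tested. The FPKM table holds no depth, which limits Fshr and the receptor genes most.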
